A study of Mus musculus with 6 samples.

Results

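Amino acids cross membranes on carriers of the solute carrier (Slc) families. The genes of 7 of these families, Slc1, Slc3, Slc6, Slc7, Slc36, Slc38 and Slc43, were compared between MSC cultures with and without a conditional deletion of Pcif1. The genes were chosen by symbol alone, as every row of the deposited count table named Slc1, Slc3, Slc6, Slc7, Slc36, Slc38 or Slc43, followed by a and a number. This gave 50 genes of the 20071 in the table, with 6 in Slc1, 2 in Slc3, 13 in Slc6, 13 in Slc7, 4 in Slc36, 9 in Slc38 and 3 in Slc43. A further 11 protein-coding genes whose symbols fit the same rule are in the annotation and were not analysed here. Of the 50 genes, 31 had enough reads to be tested, and 8 of these differed between the genotypes. Slc1a3, Slc1a5, Slc7a2, Slc36a2, Slc43a1 and Slc43a3 were lower after Pcif1 deletion, and Slc7a1 and Slc7a5 were higher.

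The cells were MSCs, marrow stromal cells able to give rise to bone, fat and cartilage cells, grown from the femurs of 6-week-old C57BL/6J mice. The control mice were Pcif1fl/fl, which carry loxP sites in both alleles of Pcif1 and no recombinase, and the libraries from them are labelled WT. The knockout mice were Prrx1-Cre;Pcif1fl/fl, labelled Pcif1 CKO, in which Cre is driven by a Prrx1 regulatory sequence active in limb mesenchyme, so that cells of other lineages in the culture keep Pcif1. All cultures had spent 7 days in osteogenic medium with dexamethasone at 100 nM, ascorbic acid at 50 µg/mL and β-glycerophosphate at 5 mM, and poly(A) RNA from 3 libraries of each genotype was sequenced. The labels name 3 libraries per genotype where the series' design text speaks of duplicates, and they do not say whether the 3 came from separate animals or cultures, so that p-values measure only the spread between these libraries. The Pcif1fl/fl libraries are called controls and the Prrx1-Cre;Pcif1fl/fl libraries knockouts below, and values of 3 libraries are given in the order of replicates 1 to 3. PCIF1 is the enzyme that adds a methyl group to an adenosine when that base is the first one transcribed after the mRNA cap, giving the mark m6Am.

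Carriers of these families differ in what drives them. Slc1 proteins couple uptake of glutamate or of small neutral amino acids to sodium, and Slc6 and Slc38 proteins are also sodium-coupled. Most Slc7 proteins are exchangers that work as light chains bound to a heavy chain of the Slc3 family, whereas the cationic carriers of Slc7 work alone. Slc36 proteins use protons, and the amino acid carriers of Slc43 let large neutral amino acids pass down their gradient. In osteoblasts, which secrete large amounts of collagen, uptake of glutamine through Slc1a5 and of large neutral amino acids through Slc7a5 with Slc3a2 is known to feed protein synthesis.

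The libraries differed in ways that touch every comparison below. They held 20258209 to 28227696 counts, and the control libraries were on the whole the deeper ones. Xist, an RNA made from an inactive X chromosome, lay between 232 and 443 CPM (counts scaled to the library size, by the TMM factors of edgeR) in the controls and between 0.722 and 1.79 CPM in the knockouts. The summed level of 4 Y-linked genes was 115 to 159 CPM in the controls and 219 to 230 CPM in the knockouts. Every control library thus held both Xist and Y-linked RNA, and whether it mixed cells of both sexes was not tested. The sex of the animals and the genotype therefore cannot be told apart. Mitochondrial transcripts made up 3.63% of the counts in control replicate 3 and 1.40% to 1.57% in the other libraries. For some genes and lists, results are also given without that library. Pcif1 itself was at 39.3 to 42.8 CPM in the controls and 37.8 to 39.7 CPM in knockout libraries, and counts over a whole gene do not show the loss of some of its exons. In bulk RNA, fewer cells of a type and less RNA per cell cannot be told apart. Markers of macrophages, a lineage that Prrx1-Cre does not target, summed to 34280 to 36992 CPM in the controls and 34349 to 37550 CPM in the knockouts. Lyz2 alone made up most of these sums, at 24321 CPM on average in the controls and 23900 CPM in the knockouts. The levels given below are therefore those of whole cultures with macrophage RNA in them, not of MSCs alone.

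The sequences at the start of the 8 transcripts that differed are shown because PCIF1 acts on a first-transcribed A. They are the first 20 bases of the annotated transcript in GENCODE release M21 on GRCm38, 5′ to 3′ on the strand of the gene, with the first base in capitals. An annotated start is not a measured cap.
Slc1a3, chr15:8710745-8710764, minus strand: Gaagtctcccagacgttcta
Slc1a5, chr7:16781340-16781359, plus strand: Aatcctggtcgcttccgtct
Slc7a2, chr8:40862412-40862431, plus strand: Ggcgggagcttctgtctgcg
Slc36a2, chr11:55185058-55185077, minus strand: Attccagccaggccagagca
Slc43a1, chr2:84840625-84840644, plus strand: Ctttctggttcctgatagcg
Slc43a3, chr2:84936664-84936683, plus strand: Ggccgggtctggccgagctg
Slc7a1, chr5:148399885-148399904, minus strand: Ggtgccctggaagctgacgc
Slc7a5, chr8:121907675-121907694, minus strand: Gcggacgcagacgcacttct

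Of the 6 lower transporter genes, 2 began with A, Slc1a5 and Slc36a2, and neither of the 2 higher genes did. Over the 31 tested transporter genes 8 began with A, or 25.8%, and over the 13039 tested genes with an annotated start 3453 did, or 26.5%. The share was 28.5% among all genes that were lower and 29.0% among all genes that were higher. The start depends on the annotation used. RefSeq gives another start for both Slc1a3 and Slc43a1, and the first base there is A for Slc1a3 and G for Slc43a1.

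The taurine carrier and the heavy chain stood at the top of the transporter genes. Levels between genes are compared as CPM per kilobase of exon, averaged over the 6 libraries. On that scale Slc6a6, the taurine carrier, was at 134, followed by Slc3a2, the heavy chain also called CD98, at 49.5. Next came Slc38a10 at 41.2, Slc43a2, a carrier of branched-chain and other large neutral amino acids, at 38.7, and Slc38a2, a sodium-coupled carrier of small neutral amino acids, at 38.1. Slc6a8, the creatine carrier, was at 32.2, Slc36a1, a proton-coupled carrier of the lysosome, at 23.7, and Slc1a5, the glutamine exchanger ASCT2, at 19.8. Only Slc1a5 of these 8 genes differed between the genotypes. Summed over all 50 genes, the level was 3545, 3585 and 3622 CPM in the controls and 3393, 3256 and 3361 CPM in the knockouts, and Slc6a6 alone made up 32.8% of the mean sum. Without Slc6a6 the sums were 2389, 2372 and 2330 CPM against 2290, 2258 and 2303 CPM. In both sums all knockouts lay below all controls, by little.

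**Figure D1:**
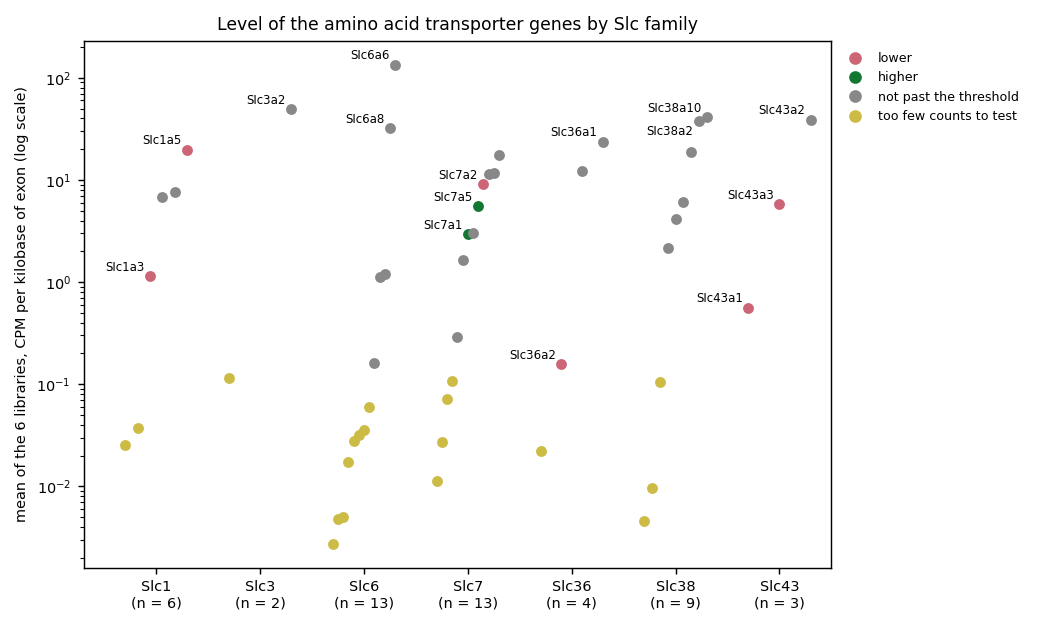
Mean level of the 50 amino acid transporter genes over the 6 libraries, in CPM per kilobase of exon on a log scale, by Slc family with the number of genes in each. Each point is 1 gene, coloured by the outcome of the test between genotypes. The genes that differed lie between the lowest tested levels (Slc36a2) and 19.8 (Slc1a5), below the 7 highest genes.

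Of the 31 tested genes, 6 were lower (4.51% of all 13733 tested genes were) and 2 were higher (2.88% of all). Together 8 of 31, or 25.8%, differed at an adjusted p under 0.05, against 7.4% of all tested genes. With a change of at least 2-fold as well, 4 were lower, against 2.5% of all tested genes, and 0 were higher. The genotypes did not overlap, with all knockouts below all controls, in 7 of the 31 (15.7% of all tested genes) and with all knockouts above in 4 (15% of all). The median log2 fold change of the 31 genes was −0.082, with 18 negative and 13 positive, and that of all tested genes was 0.0017. Thus most of the transporter genes stayed close to 0 while a few, mainly lower ones, lay far from it. All tests are the quasi-likelihood test of edgeR, with p adjusted by Benjamini-Hochberg over all 13733 genes, and fold changes are knockouts against controls.

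**Figure D2:**
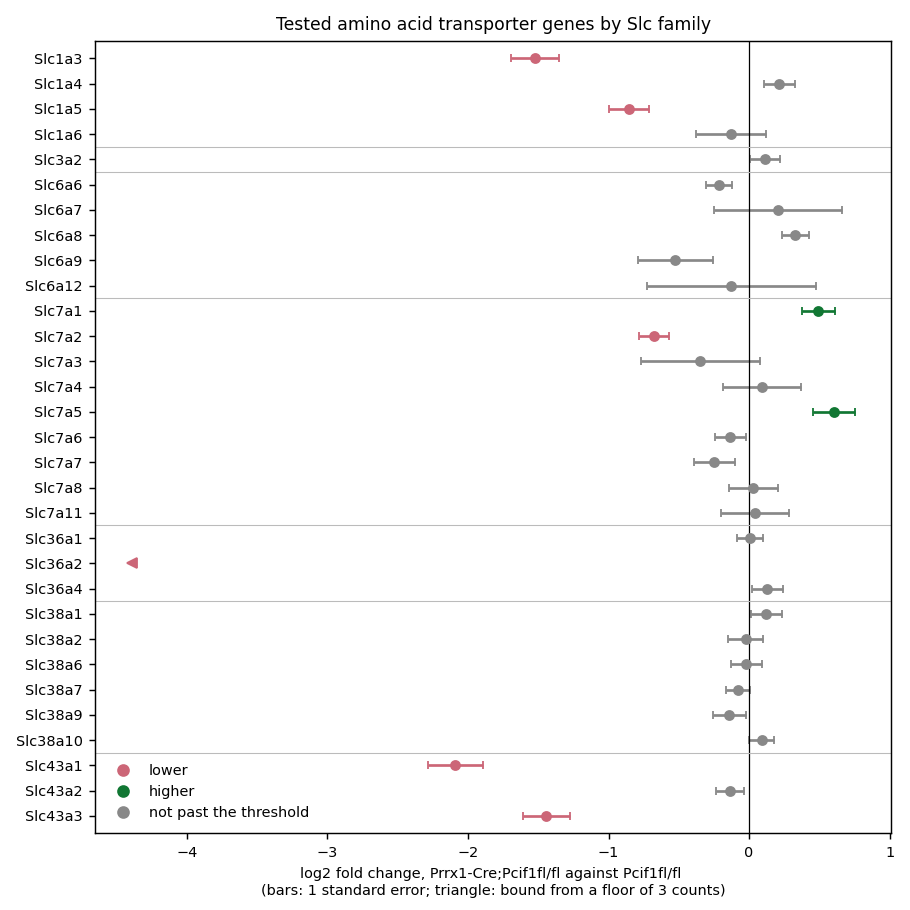
Log2 fold change of the 31 tested transporter genes, knockouts against controls, grouped by Slc family, with bars of 1 standard error. The triangle for Slc36a2, which had 0 counts in every knockout library, marks the bound from a floor of 3 counts over the group. Of the 23 genes that did not pass the test, 20 lie within 0.25 of 0.

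**Figure D3:**
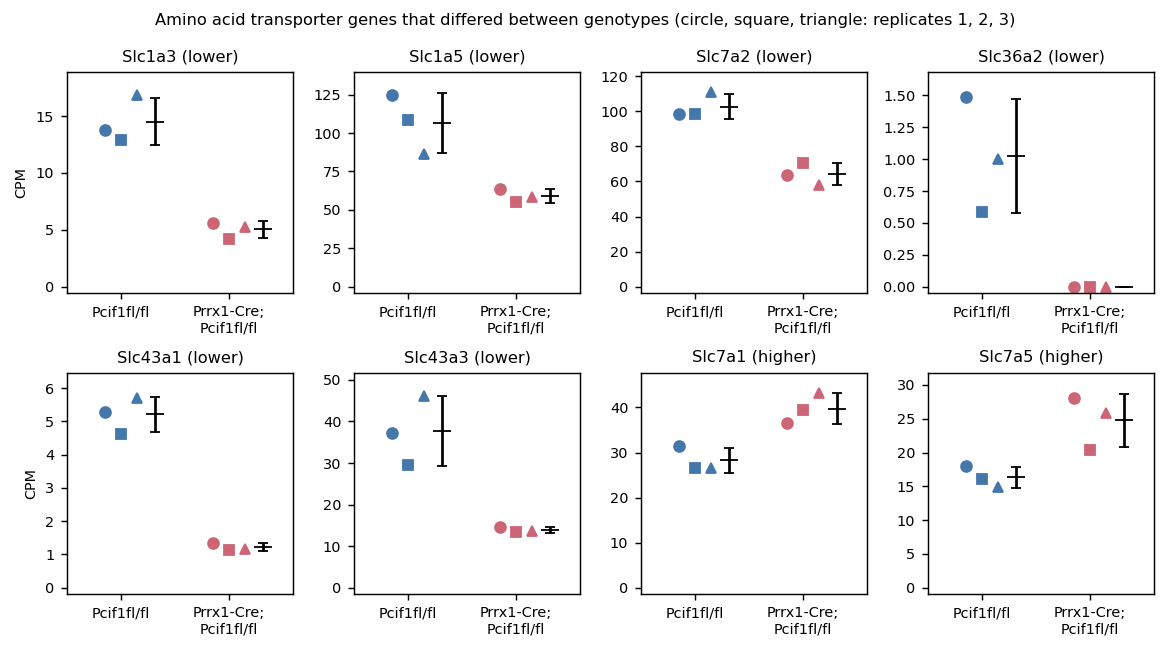
CPM of the 8 transporter genes that differed, in each library of the genotypes, with the mean and SD of 3 libraries as a bar beside the points and the axes starting at about 0. The genotypes do not overlap for any of the 8, and Slc36a2 is at 0 in all 3 knockout libraries.

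In the Slc1 family 2 of 4 tested genes were lower (4.51% of all tested genes were), a glutamate carrier and the glutamine exchanger. Slc1a3 (ENSMUSG00000005360, chromosome 15, 8634124 to 8710764), a sodium-dependent carrier of glutamate and aspartate also called GLAST, was at 13.8, 12.9 and 16.9 CPM in the controls. It was at 5.58, 4.23 and 5.29 CPM in the knockouts. All knockout libraries lay well below all control libraries. On the log2 scale the change was −1.53 with a standard error of 0.17 (adjusted p = 0.00124 by edgeR).

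Slc1a5 (ENSMUSG00000001918, chromosome 7, 16781340 to 16798274) imports glutamine in exchange for other neutral amino acids. It was at 125, 108 and 86.1 CPM in the controls and 63.6, 54.9 and 58.1 CPM in the knockouts. The control libraries were spread over a wider range than the knockout libraries, and the highest knockout library stayed below the lowest control library. On the log2 scale the change was −0.85 with a standard error of 0.14 (adjusted p = 0.0085 by edgeR). Without knockout replicate 2 it was −0.80 with adjusted p = 0.0594 by edgeR, and without replicate 3 −0.84 with adjusted p = 0.0540, so the call was lost without either of them. The close relative Slc1a4, or ASCT1, which exchanges alanine, serine, cysteine and threonine, was at 27.3, 28.1 and 28.0 CPM against 33.6, 28.3 and 34.9 CPM. It did not pass the test (log2 fold change 0.22, adjusted p = 0.319 by edgeR). Within each library, Slc1a5 counts were 4.57, 3.85 and 3.07 times those of Slc1a4 in the controls and 1.89, 1.94 and 1.66 times in the knockouts.

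The remaining Slc1 genes gave no call. Slc1a6, a glutamate carrier best known from the cerebellum and the highest of the glutamate carriers here by CPM, was at 20.8, 14.8 and 9.82 CPM in the controls and 12.2, 14.8 and 14.4 CPM in the knockouts. The controls alone covered more than the whole range of the knockouts (log2 fold change −0.13, standard error 0.25, adjusted p = 0.808 by edgeR), and without control replicate 1 its sign turned to 0.17. Slc1a1 and Slc1a2, the neuronal and glial glutamate carriers, had at most 28 counts in a library and were not tested. Summed over the family, the level was 187, 165 and 142 CPM in the controls and 116, 103 and 114 CPM in the knockouts.

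The Slc43 family had the highest share of changed genes, with 2 of its 3 lower. Slc43a1 (ENSMUSG00000027075, chromosome 2, 84838850 to 84863594), or LAT3, carries leucine and other branched-chain amino acids. It was at 5.29, 4.63 and 5.70 CPM in the controls and 1.35, 1.14 and 1.15 CPM in the knockouts. The libraries within each genotype were close together and the genotypes far apart. On the log2 scale the change was −2.09 with a standard error of 0.20 (adjusted p = 0.000558 by edgeR), the lowest adjusted p of the 31 genes.

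Slc43a3 (ENSMUSG00000027074, chromosome 2, 84936579 to 84958509) belongs to the family by sequence but is known as a carrier of purine bases, not of amino acids. It was at 37.3, 29.5 and 46.2 CPM in the controls and 14.6, 13.4 and 13.6 CPM in the knockouts. Every control library was above every knockout library, and the highest control value was that of replicate 3. On the log2 scale the change was −1.44 with a standard error of 0.17 (adjusted p = 0.0015 by edgeR), and −1.26 without control replicate 3 with adjusted p = 6.62e-07 by edgeR.

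Slc43a2 (LAT4), which carries the same amino acids as Slc43a1, was by far the most abundant of the family and did not pass the test. It was at 422, 416 and 383 CPM in the controls and 352, 414 and 347 CPM in the knockouts, with 1 knockout library among the controls (log2 fold change −0.13, standard error 0.10, adjusted p = 0.503 by edgeR). Its counts were 79.8, 89.9 and 67.2 times those of Slc43a1 in the controls and 261, 361 and 301 times in the knockouts. Of its exonic bases, 9.18% lie over an antisense gene, and since the use of strand in counting is not given in the sources used here, those reads cannot be told apart.

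The lower Slc43 genes are neighbours on chromosome 2, with 72.984 kb between them, whereas Slc43a2 lies on chromosome 11. The single other gene of the table between them, Rtn4rl2, which encodes a Nogo receptor homologue, was lower too, at 5.70 ± 1.25 CPM in the controls and 0.557 ± 0.0541 CPM in the knockouts (SD, n = 3 each). Its log2 fold change was −3.35 (adjusted p = 0.000234 by edgeR). Of the 12 tested genes within 200 kb on either side, 1 was lower and 0 were higher by edgeR, and their log2 fold changes ran from −1.46 to 0.22. The lower one was Serping1, which encodes the C1 inhibitor of complement (adjusted p = 0.00351 by edgeR). Rtn4rl2 and Serping1 were chosen after their values were seen, and a shared cause of the changes along this stretch was not tested.

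Of the 4 tested cationic carriers and relatives of the Slc7 family, Slc7a2 was lower and Slc7a1 was higher (4.51% and 2.88% of all tested genes were). Slc7a3 and Slc7a4 did not pass the test (adjusted p = 0.685 and 0.880 by edgeR), at 1.24 and 6.67 CPM on average in the controls and 0.965 and 7.09 CPM in the knockouts. Slc7a2 (ENSMUSG00000031596, chromosome 8, 40862396 to 40922308), or CAT2, carries arginine, lysine and ornithine. It was at 98.6, 98.1 and 111 CPM in the controls and 63.9, 70.4 and 57.9 CPM in the knockouts. The genotypes were clearly apart, and on the log2 scale the change was −0.68 with a standard error of 0.11 (adjusted p = 0.00623 by edgeR). An antisense gene covers 6.95% of its exonic bases.

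Slc7a1 (ENSMUSG00000041313, chromosome 5, 148327410 to 148399904), or CAT1, the carrier of the same cationic amino acids found in most tissues, was higher. It was at 31.5, 26.6 and 26.6 CPM in the controls and 36.5, 39.5 and 43.3 CPM in the knockouts. The lowest knockout library was above the highest control library by about as much as the range of the controls. On the log2 scale the change was 0.49 with a standard error of 0.12 (adjusted p = 0.0404 by edgeR). The call was lost under 6 of 13 other settings, among them the fits without control replicate 2 and without any 1 of the knockout libraries (adjusted p = 0.136 and 0.0974 to 0.190 by edgeR). Slc7a2 counts were 3.13, 3.69 and 4.16 times those of Slc7a1 in the controls and 1.75, 1.78 and 1.34 times in the knockouts. Both carriers were thus closer in counts after Pcif1 deletion in every library.

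Slc7a5 and its heavy chain gave different outcomes. Slc7a5 (ENSMUSG00000040010, chromosome 8, 121881150 to 121907694), the light chain LAT1 that exchanges leucine and other large neutral amino acids, was at 17.95, 16.1 and 14.9 CPM in the controls. It was at 28.0, 20.3 and 25.9 CPM in the knockouts. The genotypes did not overlap, with knockout replicate 2 nearest to the controls. On the log2 scale the change was 0.60 with a standard error of 0.15 (adjusted p = 0.0469 by edgeR), just inside the threshold. It fell outside it under 7 of 13 other settings, among them limma-voom (adjusted p = 0.0536), total-count scaling (adjusted p = 0.0554) and the fits without control replicate 1 or 2 or knockout replicate 1 or 3 (adjusted p = 0.0653 to 0.207 by edgeR).

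Slc3a2 (ENSMUSG00000010095, chromosome 19, 8706882 to 8723369), which brings Slc7a5 and other light chains to the membrane, was at 184, 172 and 148 CPM in the controls and 189, 168 and 187 CPM in the knockouts. The genotypes overlapped (log2 fold change 0.11, standard error 0.11, adjusted p = 0.602 by edgeR). Its counts were 10.3, 10.7 and 9.93 times those of Slc7a5 in the controls and 6.73, 8.29 and 7.24 times in the knockouts. The other heavy chain, Slc3a1, known from kidney and gut, had at most 17 counts in a library and was not tested.

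The other tested light chains showed no change past the threshold. Slc7a8, or LAT2, which carries large and small neutral amino acids and was the highest of the Slc7 genes by CPM, was at 84.0, 70.9 and 105 CPM in the controls and 80.8, 108 and 76.1 CPM in the knockouts (log2 fold change 0.030, adjusted p = 0.941 by edgeR). Slc7a11, the cystine and glutamate exchanger xCT, was at 28.7, 46.4 and 50.1 CPM against 44.9, 31.5 and 52.5 CPM (log2 fold change 0.041, adjusted p = 0.941 by edgeR). In both genes the libraries of 1 genotype covered most of the range of the other. Slc7a6 and Slc7a7, which exchange cationic for neutral amino acids, had log2 fold changes of −0.13 and −0.25 (adjusted p = 0.548 and 0.384 by edgeR).

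In the Slc36 family 1 of 3 tested genes was lower (4.51% of all tested genes were) and the other tested genes were not called. Slc36a2 (ENSMUSG00000020264, chromosome 11, 55158470 to 55185077), or PAT2, a proton-coupled carrier of glycine, alanine and proline that is also known as a surface protein of brown fat cells, had 34, 16 and 28 counts in the controls. These are 1.49, 0.588 and 1.00 CPM, a low level, and it had 0 counts in all 3 knockout libraries. Against a floor of 3 counts over the knockout group, which is 0.0476 CPM, it was at least 21.0-fold lower (adjusted p = 0.0103 by edgeR). The floor covers counting error only.

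Genes of fat cells moved with Slc36a2. Of the 9 tested adipocyte markers 6 were lower and 0 were higher by edgeR (4.51% and 2.88% of all tested genes), with 1 higher at an unadjusted p under 0.05 and 1 by DESeq2. Adipoq, the hormone adiponectin, was at 53.8, 42.9 and 44.3 CPM in the controls and 1.49, 0.697 and 0.289 CPM in the knockouts. Plin1 and Cfd, like Slc36a2, had 0 counts in every knockout library, and Pparg, Plin4 and Cidec were the other lower markers. The summed level of the 10 markers overlapped, at 792 to 839 CPM and 671 to 871 CPM, and Fabp4, Lpl and Cebpa were not called. The part of fat cells in the fall of Slc36a2 was not tested. Its neighbour Slc36a1, known for moving amino acids out of lysosomes, was at 137, 129 and 132 CPM in the controls and 129, 146 and 126 CPM in the knockouts (log2 fold change 0.0087, standard error 0.091, adjusted p = 0.970 by edgeR). Slc36a4 was likewise not called (log2 fold change 0.13, adjusted p = 0.553 by edgeR), and Slc36a3 had at most 4 counts in a library.

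No gene of the Slc6 or Slc38 families was called by edgeR. Of the 5 tested Slc6 genes, 1 was lower and 1 higher at an unadjusted p under 0.05, and DESeq2 called 1 higher and limma-voom 0. Slc6a6 (ENSMUSG00000030096, chromosome 6, 91684053 to 91759066) was at 1156, 1214 and 1292 CPM in the controls and 1103, 998 and 1058 CPM in the knockouts. All knockout libraries were below all controls, by little (log2 fold change −0.21, standard error 0.091, adjusted p = 0.223 by edgeR). Slc6a8 was at 153, 152 and 140 CPM against 192, 170 and 199 CPM, with all knockouts above all controls (log2 fold change 0.33, standard error 0.095, adjusted p = 0.0771 by edgeR), and it had the lowest adjusted p of the 23 genes not called. It lies on the X chromosome, and the effects of genotype and of sex on it cannot be told apart. Slc6a9, the glycine carrier GlyT1, was at 5.72, 7.24 and 7.57 CPM against 6.03, 2.89 and 5.34 CPM (log2 fold change −0.52, standard error 0.26, adjusted p = 0.304 by edgeR), and 3 antisense genes together cover 30.2% of its exonic bases. Slc6a12, a betaine and GABA carrier, varied most within the knockouts, at 5.22, 0.548 and 4.76 CPM against 2.36, 4.30 and 4.84 CPM in the controls.

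The remaining Slc6 genes were at or near 0. Slc6a16, whose substrate is not known, had 1 count in 1 library, and the other carriers of GABA, dopamine, noradrenaline and amino acids in this family, apart from Slc6a7 at 0.508 and 0.593 CPM on average, were too low to test.

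The Slc38 family, sodium-coupled carriers of glutamine and other neutral amino acids, had no call. Of its 6 tested genes 0 passed edgeR's test, 0 had an unadjusted p under 0.05 and 0 were called by DESeq2 or limma-voom, and all 6 overlapped between genotypes. Slc38a2, or SNAT2, was at 302, 343 and 373 CPM in the controls and 349, 285 and 367 CPM in the knockouts (log2 fold change −0.025, standard error 0.12, adjusted p = 0.931 by edgeR). Slc38a10 was at 278, 254 and 237 CPM against 271, 277 and 270 CPM (log2 fold change 0.090, standard error 0.091, adjusted p = 0.618 by edgeR). Slc38a1, or SNAT1, was at 61.0, 66.4 and 78.4 CPM against 74.7, 75.6 and 73.6 CPM and was called higher when control replicate 3, its highest control, was left out. Slc38a6, Slc38a7 and Slc38a9, the last known as an arginine sensor of the lysosome, had log2 fold changes of −0.019, −0.082 and −0.14.

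Across the 23 tested genes without a call, log2 fold changes ran from −0.52 (Slc6a9) to 0.33 (Slc6a8) with a median of −0.019, and 20 overlapped between genotypes. The 19 genes not tested had means of at most 0.488 CPM (Slc1a2) and at most 28 counts in a library. In 14 of the 19 the genotypes overlapped, in 3 the knockouts were all below and in 2 all above (15.7% and 15% of all tested genes). With no expression filter 0 of the 19 were called by edgeR, 2 were lower and 2 higher at an unadjusted p under 0.05, and the lowest adjusted p was 0.083 (Slc1a1). Without control replicate 3 the lower count stayed at 6 and the higher count rose from 2 to 4, by Slc6a8 and Slc38a1, while the share of all tested genes called rose to 10.4% lower and 11.1% higher.

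The amino acid response, a program that cells switch on when amino acids or protein folding run short, was examined because its factor ATF4 is known to drive Slc7a5, Slc7a11, Slc7a1, Slc1a5, Slc3a2 and Slc38a2. Of 17 tested response genes 3 were higher and 0 were lower by edgeR (2.88% and 4.51% of all tested genes), with 6 higher and 1 lower at an unadjusted p under 0.05. DESeq2 called 5 higher and limma-voom 3, and both called 0 lower. Their median log2 fold change was 0.19, with 15 positive. Chac1, which breaks down glutathione, was at 1.75, 2.46 and 1.18 CPM in the controls and 6.35, 4.48 and 7.12 CPM in the knockouts (log2 fold change 1.73, adjusted p = 0.0095 by edgeR). Ddit3, or CHOP, rose from 11.1, 12.4 and 12.5 CPM to 19.8, 19.96 and 21.6 CPM (log2 fold change 0.76, adjusted p = 0.00581 by edgeR), and Atf3 had a log2 fold change of 1.00 (adjusted p = 0.0201 by edgeR). Atf4 itself was at 116, 119 and 82.9 CPM against 154, 135 and 152 CPM and did not pass the test (log2 fold change 0.47, adjusted p = 0.092 by edgeR). Of the transporters known to be driven by ATF4, Slc7a5 and Slc7a1 were higher, Slc1a5 was lower, and Slc3a2, Slc7a11 and Slc38a2 were not called.

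The core of the element that ATF4 binds with C/EBP factors was searched for as TGATGNAA, or TTNCATCA on the other strand, in the RefSeq promoter windows of GRCm38.p6, 250 bases before to 50 bases after each start. It was present in 1304 of 32851 windows, or 3.97%, and in 4 of the 53 windows of transporter genes, or 7.55%. Of the 34 transporter genes with a window 3 held it, Slc1a4, Slc7a7 and Slc7a11, none of which was called. Of the 8 called genes, Slc1a3, Slc43a1 and Slc7a1 have a window, and 0 of the 3 hold these letters. The matches of Slc1a4 and Slc7a11 are printed, in capitals and on the strand of the gene, since they show the element once and as a pair.
Slc1a4, chr11:20332694-20332733, minus strand: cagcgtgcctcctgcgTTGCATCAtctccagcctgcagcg
Slc7a11, chr3:50443637-50443695, minus strand: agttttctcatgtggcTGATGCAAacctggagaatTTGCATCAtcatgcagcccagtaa

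Of 20 tested aminoacyl-tRNA synthetases, which load amino acids onto tRNAs, 2 were higher and 0 were lower by edgeR (2.88% and 4.51% of all tested genes), with 9 higher and 0 lower at an unadjusted p under 0.05 and 4 higher and 0 lower by DESeq2. Their median log2 fold change was 0.21, 18 of the 20 were positive, and in 11 every knockout library was above every control (15% of all tested genes). Lars, the leucine enzyme, was at 66.6, 68.2 and 56.2 CPM against 84.0, 87.5 and 85.3 CPM (log2 fold change 0.43, adjusted p = 0.0404 by edgeR), and Gars, the glycine enzyme, had a log2 fold change of 0.38 (adjusted p = 0.0340 by edgeR). Of 36 tested genes of amino acid synthesis and breakdown, 13 had a negative and 23 a positive log2 fold change, with a median of 0.10. At an unadjusted p under 0.05, 4 were lower and 11 higher, and DESeq2 called 3 lower and 6 higher. By edgeR 1 was lower (4.51% of all tested genes were). Glul, which makes glutamine from glutamate, was at 541, 492 and 453 CPM against 310, 381 and 292 CPM (log2 fold change −0.60, adjusted p = 0.0231 by edgeR).

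Among 17 tested amino acid and peptide carriers outside the 7 families, 1 was lower and 2 were higher (4.51% and 2.88% of all tested genes). Slc15a2, a peptide carrier of the cell surface, was at 4.72, 4.52 and 5.77 CPM against 2.07, 2.59 and 2.60 CPM (log2 fold change −1.05, adjusted p = 0.0139 by edgeR). Slc15a3, a peptide and histidine carrier of the lysosome, was at 25.2, 24.2 and 27.8 CPM against 55.3, 54.8 and 49.5 CPM (log2 fold change 1.05, adjusted p = 0.000712 by edgeR). The third, Slc17a8, a vesicular glutamate carrier, was below 1 CPM in every library (log2 fold change 2.02, adjusted p = 0.0221 by edgeR). Of 37 tested genes of amino acid sensing and mTORC1, 0 were called by edgeR, DESeq2 or limma-voom, 1 was lower and 3 were higher at an unadjusted p under 0.05, and the median log2 fold change was 0.027.

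The calls of these lists depended on the libraries. Without control replicate 3, edgeR called 8 response genes higher and 2 lower, 11 synthetases and 6 sensing genes higher, 8 synthesis and breakdown genes lower and 10 higher, and 3 of the other carriers in each direction, beside the larger shares of all genes given above. Without any 1 of the other 5 libraries it called 1 to 3 response genes higher and 0 lower, 0 to 1 synthetases higher, 0 to 1 synthesis and breakdown genes in each direction, 0 sensing genes, and 0 to 1 of the other carriers lower and 1 to 2 higher. In those 5 fits the share of all tested genes called was 2.32% to 3.49% lower and 1.06% to 2.1% higher, also below that with all 6 libraries. Synthetases were thus called higher with all 6 libraries (2 genes), without control replicate 1 (1 gene) and without control replicate 3 (11 genes). None was called when control replicate 2 or any 1 knockout was left out.

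**Figure D4:**
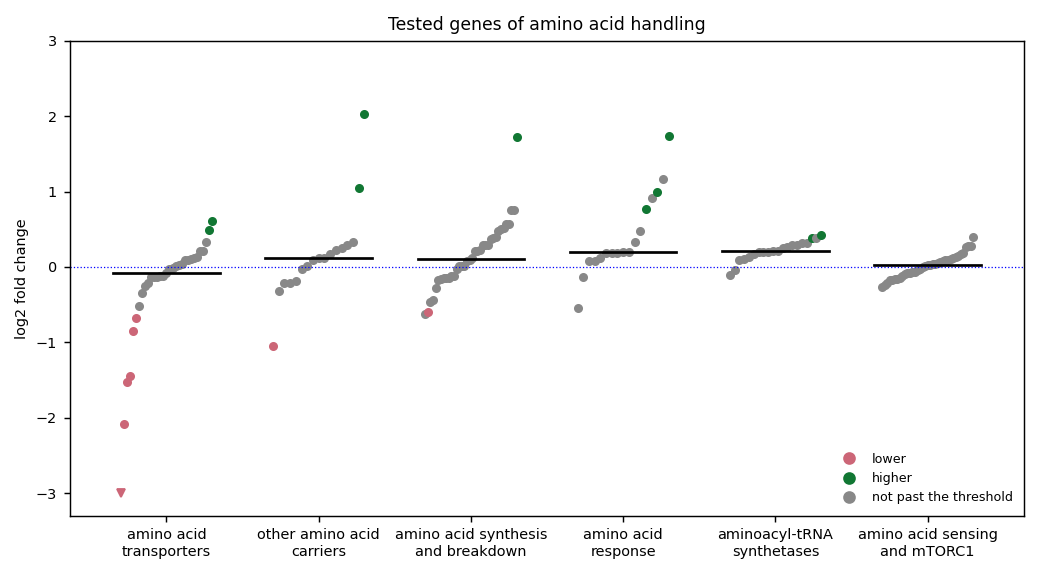
Log2 fold change of every tested gene of the amino acid transporters and of 5 other lists of amino acid handling, knockouts against controls, sorted within each list, with the median as a black bar and the median of all tested genes (0.0017) as a dotted line. The triangle is Slc36a2, drawn at the edge of the axis. The median of the transporters is −0.082, and those of the other lists lie between 0.027 and 0.21.

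The makeup of the cultures was read from marker genes. Of 10 mesenchymal markers 2 were lower, Pdgfra and Eng, and 4 were higher, Col1a1, Col1a2, Thy1 and Vim (4.51% and 2.88% of all tested genes). Without control replicate 1 the counts stayed at 2 and 4, without knockout replicate 1 they were 1 and 0, without knockout replicate 2 or 3 or control replicate 2 they were 1 and 1, and without control replicate 3 they were 3 and 6, beside the shares of all genes in the same fits given above. The sum of the mesenchymal markers was 8844 to 11600 CPM in the controls and 14999 to 15801 CPM in the knockouts, of which the collagens Col1a1 and Col1a2 made up 6711 to 9198 and 12031 to 12859 CPM. The sum of the 7 markers other than these collagens and Vim was 653 to 805 CPM and 659 to 681 CPM, and the genotypes overlapped. Of 16 macrophage markers 0 were called by edgeR, with 1 lower and 2 higher at an unadjusted p under 0.05 and 2 higher by DESeq2. Of 10 endothelial and 8 smooth muscle markers 0 were called by edgeR, although DESeq2 called 1 and 2 lower. Without control replicate 3, edgeR called 1 macrophage marker lower and 3 higher, 1 endothelial marker lower and 1 higher, and 2 smooth muscle markers lower. It also called 1 endothelial marker lower without control replicate 2, and 1 endothelial and 1 smooth muscle marker lower with total-count scaling. The sums of the endothelial and smooth muscle markers were 35.8 to 47.8 against 33.5 to 37.6 CPM and 538 to 704 against 581 to 610 CPM. Of the 2 neutrophil markers with enough counts, S100a8 was higher with all 6 libraries, and 0 were called when any 1 library other than control replicate 3 was left out. The part of these cells in the changes of transporter genes was not tested.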

How the data were processed

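Poly(A) RNA of 6 libraries was sequenced by the authors as pairs of 150-base reads, and the deposited values are raw counts of reads per gene, which the authors made after mapping to mm10 with HISAT2 and did not normalize. Which tool counted the reads, on which annotation and with which strand setting is not given in the sources used here. Each of the 20071 Ensembl IDs was used once, since 92 of the 20163 rows were repeats with equal counts. Positions, exon lengths and transcript starts came from GENCODE M21 on GRCm38, and promoter windows from RefSeq.

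Counts of all genes were tested by edgeR 4.0.16 under R 4.3.3 (filterByExpr, TMM factors, quasi-likelihood test, no covariate, Benjamini-Hochberg adjustment over 13733 genes, threshold 0.05). The fits were tested on simulated counts. A standard error is the fitted log2 change over the root of its F statistic. An exact permutation test of 1 value, two-sided, has 0.1 as its smallest p for 3 against 3 libraries, so none is given. Depth was 20258209 to 28227696 counts per library, and intervals and floors cover counting error only. Replicates of a genotype differed by more than sampling noise, with a chi-square per gene of 82.9 and 98.6 for the pairs with control replicate 3 and 2.83 to 10.1 for the other pairs.

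The transporter genes, the gene lists and the tests were chosen with earlier results of these data known. Named by rule were Slc1a5, Slc7a5, Slc3a2, every gene called, every gene with no overlap and a change of at least 2-fold, the gene with the highest CPM in each family and role group, the 5 highest per kilobase, and up to 4 called genes of each other list. Slc1a4, Slc6a8, Slc6a12, Slc7a11, Slc38a1, Rtn4rl2, Serping1, Atf4 and the ratios between genes were chosen after their values were seen. The alternatives were DESeq2 1.42.0, limma-voom (limma 3.58.1), RLE and total-count scaling, no filter, a mean of at least 10 counts, the replicate number as a block, a further threshold of 1 on the absolute log2 fold change, and leaving out each library. A result of the synthesis and breakdown list is not reported here.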

Additional observations from a re-analysis of the deposited data

How the results depend on the processing

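Under all 14 alternatives between 4 and 6 transporter genes were lower, and Slc1a3, Slc7a2, Slc36a2, Slc43a1 and Slc43a3 kept their call under each of the 13 settings that refit the data. The count of higher genes, 2 as reported, was less settled: 0 with a threshold of 1 on the absolute log2 fold change, 0 with total-count scaling, 1 with limma-voom, 3 with DESeq2, and 0 to 4 when a single library was left out. With the replicate number as a block it was 0 and the lower count stayed at 6. The deviations of same-numbered libraries correlated at 0.064, −0.050 and −0.0016. These values show no pairing by number, but deviations from means of 3 libraries cannot exclude it. Slc1a5 lost its call under 2 of the 13 settings, Slc7a1 under 6 and Slc7a5 under 7, and the cause was not tested. The sign turned for genes that were never called. Slc1a6 was at 0.17 without control replicate 1, and between −0.36 and 0.17 over the libraries left out. Slc36a1 was at −0.014 with total-count scaling, −0.010 without control replicate 2 and −0.058 without knockout replicate 2. Slc38a2 was at 0.051 without control replicate 3 and 0.078 without knockout replicate 2, and at −0.10 as its lowest. Slc7a8 was at −0.094 without control replicate 2 and −0.14 without knockout replicate 2, and at 0.19 as its highest. Scaling moved the median of all genes by less than 0.1 on the log2 scale. The 19 genes with too few counts were left out of the test, and the effect of depth on them was not tested.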
